A study of Mus musculus with 28 samples.

Results

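The 50 genes described here act in mitosis and cytokinesis, and they were taken by symbol from the 45318 gene rows measured in 28 mouse hearts. All 50 were found, and all 50 passed the filter on low counts at both follow-ups. RNA was taken from the left ventricular wall remote from the infarct in male Hsd:ICR(CD-1) pups, which were operated at postnatal day 1 or 7 and stayed with their mother and litter. The operation was either ligation of the left anterior descending coronary artery, which causes myocardial infarction (MI), or a sham operation, and the hearts were collected 3 or 21 days later. The groups 1d-SHAM + 3 and 1d-MI + 3 were thus 4 days old at sampling, 7d-SHAM + 3 and 7d-MI + 3 were 10 days old, 1d-SHAM + 21 and 1d-MI + 21 were 22 days old, and 7d-SHAM + 21 and 7d-MI + 21 were 28 days old. Each group held 4 libraries at 3 days and 3 libraries at 21 days. The study compared pups that can still regenerate heart muscle with pups that have lost most of this capacity, and the comparison between the ages of operation therefore also spans a difference in age.

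At the onset of mitosis, Cdk1 bound to cyclin B phosphorylates many proteins, and chromosomes condense, attach to spindle microtubules through kinetochores and wait at the spindle checkpoint until all are attached. The anaphase-promoting complex then releases sister chromatids, and a contractile ring with anillin divides the cell. Transcripts of these genes peak in G2 and M phase and are low in resting cells. Cardiomyocytes of rodents leave the cell cycle in the first week after birth, some of them after a last mitosis without cytokinesis, while fibroblasts, endothelial cells and leukocytes can go on dividing. In RNA from the whole wall, fewer dividing cells of a type and less RNA of these genes per cell cannot be told apart.

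Many genes of this kind share 2 promoter elements, the cell cycle genes homology region (CHR), which recruits the DREAM and MuvB complexes, and the CCAAT box, which binds NF-Y. RefSeq windows on GRCm38.p6 held 42 of the 50 genes in 44 windows. The letters TTTGAA or TTCGAA, read on both strands, were searched in the 250 bases before the start, and CCAAT was searched on both strands in the same bases. The CHR letters occurred in 17 of the 44 windows (38.6%), against 17.1% of all 32851 windows of the same length, and CCAAT occurred in 31 (70.5%), against 33.8% of all windows. Within 100 bases of the start, CHR letters were found in 25% of the windows of these genes and in 6.13% of all windows, and CCAAT in 61.4% and 18.9%. Both elements together were found within 250 bases in 31.8% of these windows and in 6.02% of all windows. The patterns can share an end base, a match is only a match of letters, and no test was made. The following stretches end at the base just before the start and belong to the 6 genes of smallest p between the sham groups at 3 days that carry CHR letters, with CHR and CCAAT letters of either strand in capitals. They are Ncapg at chr5:45669729-45669924 (+ strand), Ect2 at chr3:27153879-27154012 (- strand), Smc2 at chr4:52439056-52439220 (+ strand), Kif11 at chr19:37376317-37376381 (+ strand), Kif2c at chr4:117178773-117178895 (- strand) and Cdk1 at chr10:69352913-69353140 (- strand).
Ncapg: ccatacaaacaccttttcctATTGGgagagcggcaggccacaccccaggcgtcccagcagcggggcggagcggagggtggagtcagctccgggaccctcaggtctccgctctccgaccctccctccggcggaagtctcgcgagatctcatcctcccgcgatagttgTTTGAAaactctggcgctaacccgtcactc
Ect2: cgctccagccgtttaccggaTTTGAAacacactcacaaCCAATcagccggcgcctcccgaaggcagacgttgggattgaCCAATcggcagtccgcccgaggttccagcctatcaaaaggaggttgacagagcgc
Smc2: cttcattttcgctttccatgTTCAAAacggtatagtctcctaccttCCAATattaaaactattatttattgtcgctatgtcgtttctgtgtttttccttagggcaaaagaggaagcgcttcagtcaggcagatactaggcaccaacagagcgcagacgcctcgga
Kif11: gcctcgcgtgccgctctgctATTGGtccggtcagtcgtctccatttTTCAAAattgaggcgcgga
Kif2c: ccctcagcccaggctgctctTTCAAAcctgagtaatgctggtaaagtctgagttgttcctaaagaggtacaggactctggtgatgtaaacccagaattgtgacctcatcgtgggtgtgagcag
Cdk1: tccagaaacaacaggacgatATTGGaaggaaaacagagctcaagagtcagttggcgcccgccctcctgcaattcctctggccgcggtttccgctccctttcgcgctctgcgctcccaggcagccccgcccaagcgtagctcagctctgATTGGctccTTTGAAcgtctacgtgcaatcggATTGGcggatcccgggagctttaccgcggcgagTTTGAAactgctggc
In Ncapg the CHR letters began 30 bases before the start and in Kif11 19 bases, and in Cdk1 they began 71 and 15 bases before it. In Kif2c they began 103 bases before the start used, with no CCAAT in these 250 bases. The listed span of Kif2c is chr4:117159639-117182639 on the - strand. Its stretch thus lies inside the gene, at an internal start, and not before the whole gene. The 6 stretches were chosen for carrying CHR letters, and they differ in the distance of these letters and in CCAAT.

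The libraries held 33077962 to 51942648 counts at 3 days and 40514177 to 168550985 counts at 21 days. The 2 follow-ups were prepared with different kits and sequencers, so each was scaled and fitted apart, and levels are given as CPM, counts per 1e6 counts of a library, scaled within a follow-up. The summed level of 10 cardiomyocyte markers was between 23259 and 68801 CPM at 3 days and between 21811 and 41931 CPM at 21 days, and none of these markers was at 0 in any group. The number or code that begins each sample name is not explained by the labels, and no such prefix was shared between groups, so prefix and group cannot be told apart. Within 1d-SHAM + 3 it separated the libraries, since the summed level of the 50 genes was 3365 and 3528 CPM in the libraries of prefix 1078 and 1661 and 2616 CPM in those of prefix 1103. Reads in 1579 olfactory and vomeronasal receptor genes, left after the highest 5% were removed, were taken as a background. They amounted to at most 0.0618 CPM per kilobase at 3 days and 0.237 CPM per kilobase at 21 days. At 3 days this background was not even. It was 0.0103 to 0.0618 in 1d-MI + 3, at most 0.000397 in 7d-SHAM + 3 and at most 0.00132 in 7d-MI + 3. Within 1d-SHAM + 3 it was 0.0238 and 0.0222 in the libraries of prefix 1078 and 0.000547 and 0.000841 in those of prefix 1103.

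Among the 4-day-old hearts, levels per kilobase of gene length were highest for Ccna2, the cyclin of S phase and mitotic entry, with 43.2 CPM per kilobase in 1d-SHAM + 3. Smc4, a condensin subunit, followed with 40.9 CPM per kilobase and Mad2l1, a checkpoint protein, with 31.7 CPM per kilobase. At the other end were Cdca5, the cohesin protector sororin, with 1.10 CPM per kilobase and Espl1, the protease separase, with 0.465 CPM per kilobase. Espl1 and Cdca5 were also the lowest pair in the other 3 groups at this follow-up. The first place changed in 7d-MI + 3, where Mki67, which encodes the Ki-67 coat protein of mitotic chromosomes, reached 42.0 CPM per kilobase against 26.6 CPM per kilobase for Ccna2.

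**Figure D1:**
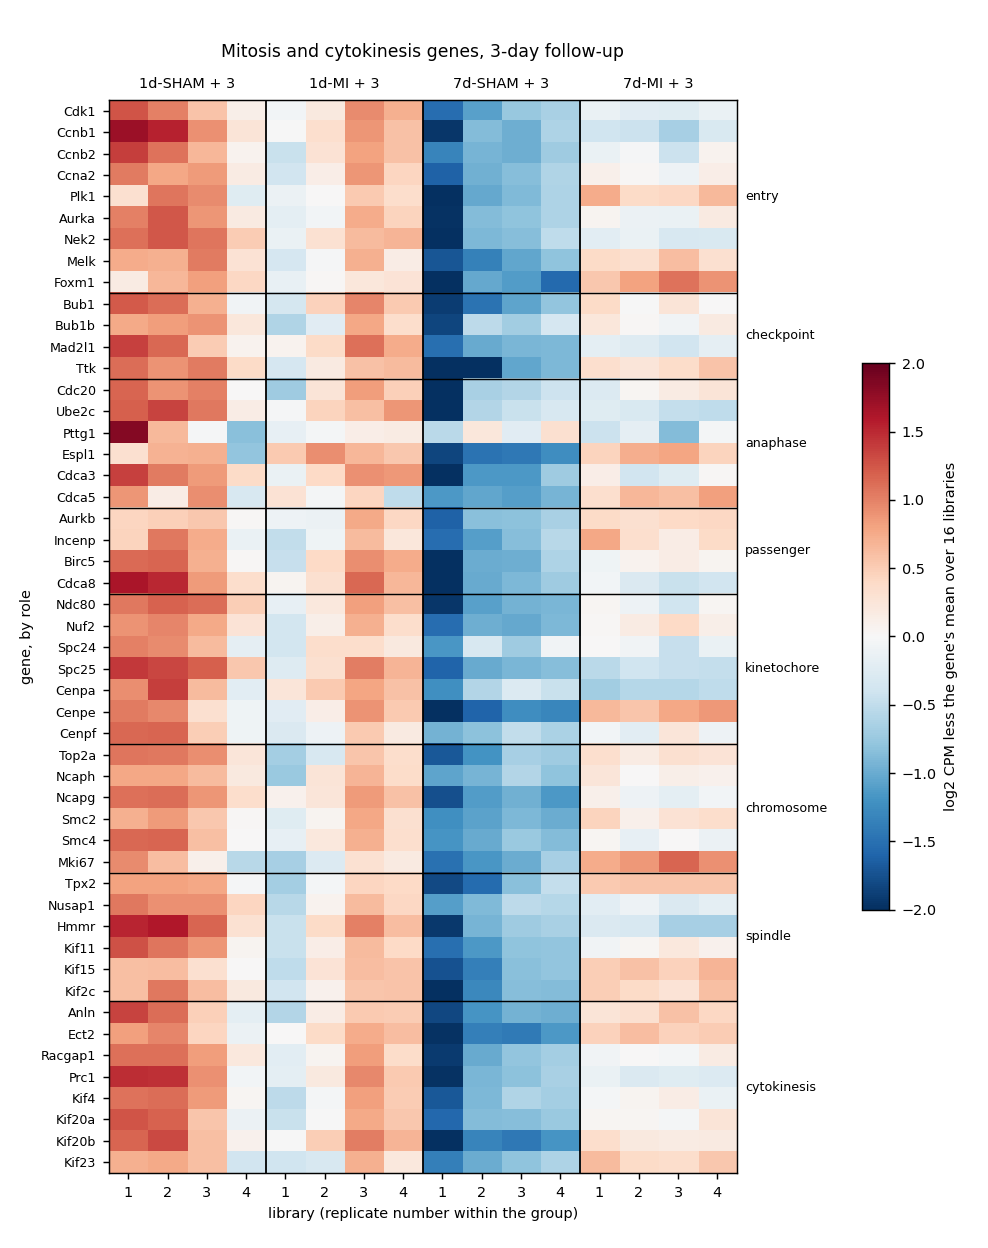
Each row is 1 of the 50 genes and each column 1 library of the 3-day follow-up, and the colour gives log2 CPM less the mean of that gene over the 16 libraries, with colours limited to 2 log2 units either way. Most rows are lowest in the 4 libraries of 7d-SHAM + 3, above all in its replicate 1, and highest in the first libraries of 1d-SHAM + 3.

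Sham hearts differed strongly between the ages 3 days after the operation. In 7d-SHAM + 3 against 1d-SHAM + 3, 49 of the 50 genes were lower and 0 were higher by edgeR at an adjusted p under 0.05, where 12.2% of all genes tested were lower and 8.12% were higher. The median log2 fold change of the 50 genes was -1.83, with quartiles of -2.02 and -1.60, against -0.13 for all genes. Their summed level was 3528, 3365, 2616 and 1661 CPM in the 4 libraries of 1d-SHAM + 3 and 553, 798, 919 and 988 CPM in those of 7d-SHAM + 3, without overlap. Without the libraries of prefix 1078, 44 of the 50 genes were lower with a median of -1.51, where 832 of 24248 genes tested were lower. Without those of prefix 1103, 50 genes were lower with a median of -1.99, where 4654 of 24581 genes tested were lower.

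The kinases, cyclins and the transcription factor of mitotic entry were lower in all 9 cases, from -1.70 for Ccna2 to -2.23 for Ccnb1, which encodes cyclin B1. Cdk1, the mitotic kinase itself, was measured at 62.1, 52.4, 38.6 and 28.4 CPM in 1d-SHAM + 3 and at 9.11, 12.3, 15.4 and 16.6 CPM in 7d-SHAM + 3. Ccnb1 was measured at 78.0, 69.3, 44.7 and 28.6 CPM in the younger and at 6.19, 13.0, 12.1 and 15.6 CPM in the older sham hearts. Foxm1, which drives transcription of G2 and M phase genes, had 6.31, 8.92, 10 and 7.52 CPM in the younger and 1.36, 2.79, 2.61 and 1.93 CPM in the older sham hearts. For these 3 genes every younger library lay above every older one. Within 1d-SHAM + 3, Cdk1 and Ccnb1 followed the order of the summed level over its libraries, whereas Foxm1 was lowest in replicate 1, where Cdk1 and Ccnb1 were highest.

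All 4 checkpoint genes were lower, from -1.45 for Bub1b to -2.28 for Ttk, the kinase Mps1. Bub1, a kinase of the unattached kinetochore, had 37.1, 34.4, 25.8 and 15.1 CPM in 1d-SHAM + 3 and 4.25, 5.70, 7.61 and 9.20 CPM in 7d-SHAM + 3. The 4 chromosomal passenger genes, whose complex corrects faulty attachments and later acts at the cleavage furrow, were lower too. Their catalytic subunit Aurkb was lower by the smallest amount of the 4 (log2 fold change -1.31, SE 0.23), with 5.95, 6.15, 6.38 and 4.46 CPM against 1.43, 2.48, 2.51 and 2.82 CPM. Cdca8, the borealin subunit, was lower by the largest amount (-2.32, SE 0.36).

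The 7 kinetochore and centromere genes were lower, from -1.18 for Spc24 to -2.22 for Spc25, although both encode subunits of the same NDC80 complex. Spc24 was called, although its libraries overlapped between the groups. Ndc80, the subunit that holds the microtubule, fell by 2.15 on the log2 scale (SE 0.23, adjusted p = 7.7e-06), from 33.2, 36.0, 34.7 and 22.4 CPM to 4.15, 7.49, 8.25 and 8.41 CPM. The smallest p of all 50 genes was that of the condensin subunit Ncapg (log2 fold change -2.11, SE 0.20, adjusted p = 2.1e-06), with 73.4, 73.8, 62.7 and 43.8 CPM in the younger and 10.1, 15.7, 17.6 and 15.4 CPM in the older sham hearts. Reads of Ncapg can be shared with Lcorl, whose exons overlap it on the other strand, since the strand setting of the counting is not given in the sources used here.

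Top2a, the topoisomerase that untangles sister chromatids, had 217, 215, 197 and 123 CPM in 1d-SHAM + 3 and 32.1, 45.1, 65.3 and 63.3 CPM in 7d-SHAM + 3. Mki67 had 427, 338, 237 and 150 CPM in the younger and 78.5, 99.1, 111 and 139 CPM in the older sham hearts. The groups did not overlap for either gene, but for Mki67 the lowest younger and the highest older library were close to each other. The call of Mki67 was lost without the libraries of prefix 1078, where its log2 fold change was -0.86.

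The 8 genes of the spindle midzone and cytokinesis were all lower, from -1.41 for Kif23 to -2.37 for Kif20b, the largest change of the 50. Anln, which encodes anillin, the scaffold of the contractile ring, had 91.1, 77.2, 49.4 and 31.2 CPM in 1d-SHAM + 3 and 10.1, 15.7, 18.5 and 18.2 CPM in 7d-SHAM + 3. Ect2, the exchange factor that switches on RhoA at the furrow, had 30.3, 33.8, 23.0 and 15.9 CPM and 4.38, 6.62, 6.43 and 7.71 CPM (log2 fold change -2.03, SE 0.21, adjusted p = 6.4e-06). The 6 spindle motors and assembly factors were lower as well, from -1.53 for Kif15 to -2.21 for Hmmr. Of the 6 genes of anaphase and cohesion control, 5 were lower.

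The exception was Pttg1, the inhibitor of separase known as securin. Pttg1 had 21.5, 9.47, 5.96 and 3.40 CPM in 1d-SHAM + 3 and 4.15, 7.06, 5.17 and 7.57 CPM in 7d-SHAM + 3, and its log2 fold change of -0.75 (SE 0.39) did not pass the test (adjusted p = 0.18). The younger libraries spread over the whole range of the older ones and beyond it.

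MI at day 1 was followed 3 days later by lower values of most of these genes, few of which passed the test. In 1d-MI + 3 against 1d-SHAM + 3, 49 of 50 log2 fold changes were negative and their median was -0.50, against 0.06 for all genes. By edgeR 0 genes were higher and 1 was lower at an adjusted p under 0.05, where 4.10% of all genes were higher and 4.36% lower. At an unadjusted p under 0.05, 18 of the 50 were lower, against 13.0% of all genes. DESeq2 and limma-voom each called 3 of the 50 genes lower, where they called 5.70% and 4.78% of all genes lower. Without the filter on low counts edgeR called 23 of the 50 lower, against 3.13% of all genes.

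The called gene was Nusap1, which bundles spindle microtubules near chromosomes, with 28.0, 43.3, 64.0 and 55.1 CPM in 1d-MI + 3 and 85.6, 77.3, 78.1 and 55.7 CPM in 1d-SHAM + 3 (log2 fold change -0.64, SE 0.20, adjusted p = 0.048). The groups overlapped by the lowest sham and the highest MI library. Nusap1 was called in 7 of the 20 alternative settings, with adjusted p between 0.0023 and 0.15. Top2a had the lowest value, -0.80 (SE 0.25, adjusted p = 0.056), with 64.6, 82.9, 152 and 132 CPM after MI. Espl1 was the single gene with a positive value, 0.32.

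The libraries of 1d-MI + 3 and 1d-SHAM + 3 overlapped for all 50 genes. Cdk1 had 25.1, 30.0, 50 and 42.6 CPM, Ccnb1 23.8, 30.0, 44.1 and 35.6 CPM and Foxm1 5.11, 5.76, 6.65 and 6.82 CPM in 1d-MI + 3. Bub1 had 12.4, 21.7, 31.0 and 22.7 CPM, Aurkb 4.11, 4.07, 7.42 and 5.89 CPM, Mki67 139, 183, 273 and 250 CPM and Anln 23.8, 39.6, 51.1 and 50.8 CPM. Replicate 1, the only library of its prefix, had the lowest summed level of the 50 genes, with 1283 CPM against 1727, 2672 and 2188 CPM. The median of the 50 genes depended on which sham libraries were used, and the median of all genes also moved. Without the libraries of prefix 1078 it was -0.14, against 0.36 for all genes. There 0 of the 50 were called, where 1787 of 24248 genes tested were lower. Without those of prefix 1103 it was -0.70, against 0.16 for all genes. There 5 of the 50 were called lower, where 210 of 24581 genes tested were lower. Without replicate 3 of 1d-MI + 3, 12 of the 50 genes were called lower, where 1646 of 22047 genes tested were lower. Without replicate 4 of 1d-SHAM + 3, 7 of the 50 were called lower, where 367 of 22163 genes tested were lower. With any other single library left out, 0 of the 50 were called.

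**Figure D2:**
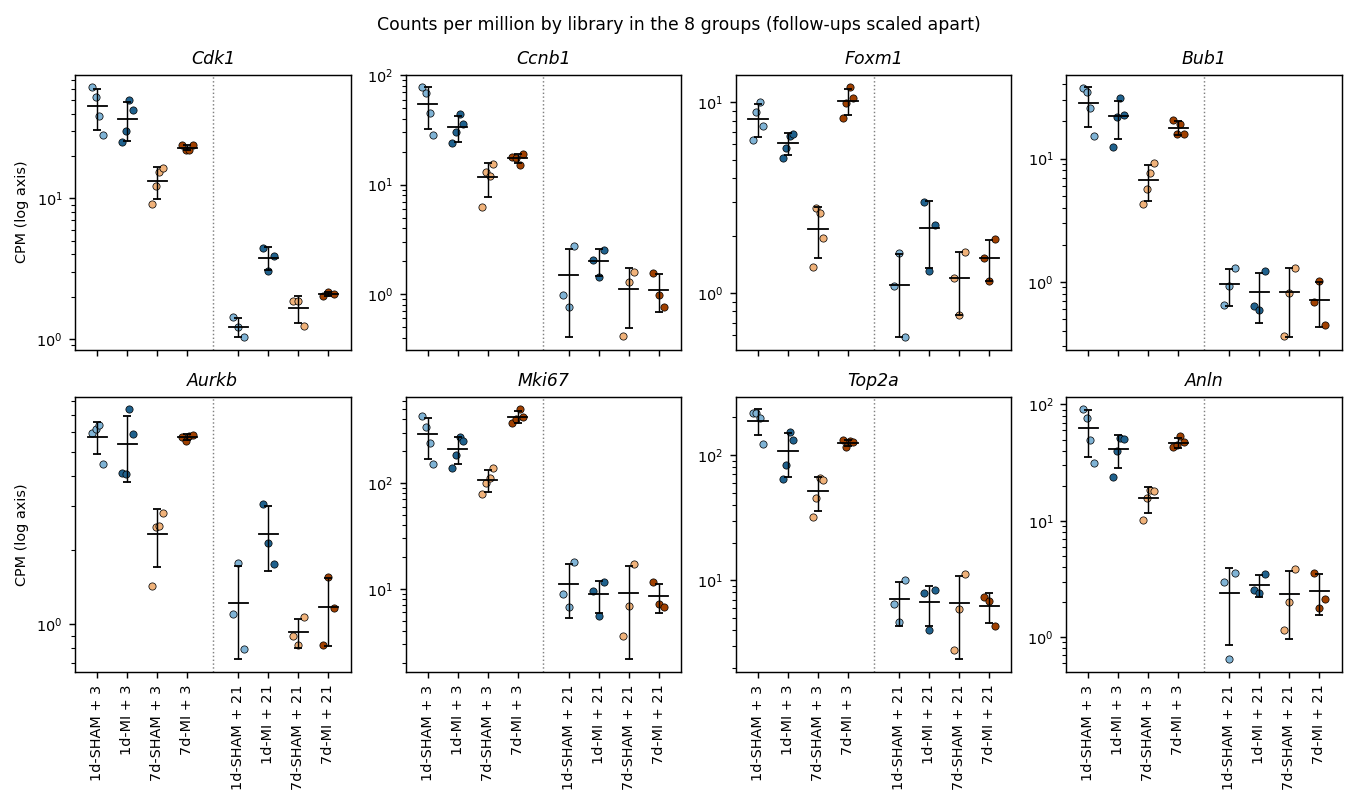
CPM of 8 genes on a log axis, with 1 point per library, a line at the group mean and bars of 1 SD; the follow-ups are separated by the dotted line and were scaled apart. At 3 days 7d-SHAM + 3 lies lowest for all 8 genes, and Mki67 and Foxm1 have their highest group means in 7d-MI + 3.

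MI at day 7 was followed by the opposite. In 7d-MI + 3 against 7d-SHAM + 3, 40 of the 50 genes were higher and 0 were lower, where 19.8% of all genes were higher and 14.2% lower. The median log2 fold change was 1.08, against 0.08 for all genes. The summed level was 553 to 988 CPM in the shams and 1897, 1836, 1982 and 1931 CPM in the MI hearts, and the last lay within the range of both groups of 4-day-old hearts. The median was between 0.90 and 1.19 when single libraries were left out, the lowest value without replicate 1 of 7d-SHAM + 3.

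Of the entry genes, 8 of 9 were higher. Foxm1 had the smallest p of the 50 (log2 fold change 2.22, SE 0.22, adjusted p = 3.0e-07), with 8.21, 9.86, 12.0 and 10.5 CPM in 7d-MI + 3, each of them more than the highest sham value. Exons of Foxm1 overlap those of Tex52 and Gm44596 on the same strand, so part of its counts may belong to them. Cdk1 was higher by 0.78 (SE 0.24, adjusted p = 0.016), with 23.9, 22.3, 22 and 23.9 CPM. Ccnb1 had 18, 17.7, 15 and 19.2 CPM, overlapped its shams and did not pass (0.57, SE 0.29, adjusted p = 0.15). Plk1, the polo kinase, was higher by 1.65 (SE 0.31).

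All 4 checkpoint genes were higher, from 0.81 for Mad2l1 to 1.78 for Ttk, with Bub1 at 20.6, 15.7, 19.0 and 15.9 CPM in 7d-MI + 3. All 6 genes of chromosome structure were higher, from 0.89 for Smc4 to 1.98 for Mki67. Mki67 reached 369, 406, 498 and 419 CPM and Top2a 131, 116, 130 and 126 CPM, both without overlap with the shams. Of the passenger genes Aurkb, Incenp and Birc5 were higher, Aurkb with 5.72, 5.51, 5.80 and 5.86 CPM, while Cdca8 had a value of 0.86 that did not pass (adjusted p = 0.069).

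Of the midzone and cytokinesis genes, 7 of 8 were higher, led by Ect2 (1.96, SE 0.21, adjusted p = 9.8e-07) with 23.7, 26.2, 23.5 and 24.5 CPM. Anln rose by 1.59 (SE 0.30) to 42.7, 44.5, 53.6 and 47.7 CPM. The remaining gene, Prc1, which bundles the antiparallel microtubules of the midzone, had a value of 0.77 (adjusted p = 0.074). Of the spindle genes 5 of 6 were higher, and Hmmr was not called (0.50, adjusted p = 0.26).

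The kinetochore genes were divided, with 4 of 7 higher. Cenpe, a kinetochore motor, had the largest change of the 50 (2.26, SE 0.27, adjusted p = 5.4e-06), from 6.87, 10.6, 13.6 and 13.0 CPM to 50.4, 47.5, 55.2 and 58.5 CPM. Cenpa, the centromeric histone H3 variant, had 6.92, 7.52, 7.48 and 7.83 CPM after MI and 4.76, 7.43, 9.25 and 8.20 CPM in the shams, a log2 fold change of 0.00 (SE 0.25). Cenpa was thus lower in the older than in the younger shams by 1.38 but did not differ detectably after MI. Spc24 and Spc25 were not called either (0.35 and 0.59). Pttg1 was the only gene with a negative value, -0.33 (SE 0.39), and with Ube2c, the ubiquitin-conjugating enzyme of the anaphase-promoting complex (0.38), and Cdc20, its activator (0.90, adjusted p = 0.066), made up the 3 of 6 anaphase genes that did not pass.

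**Figure D3:**
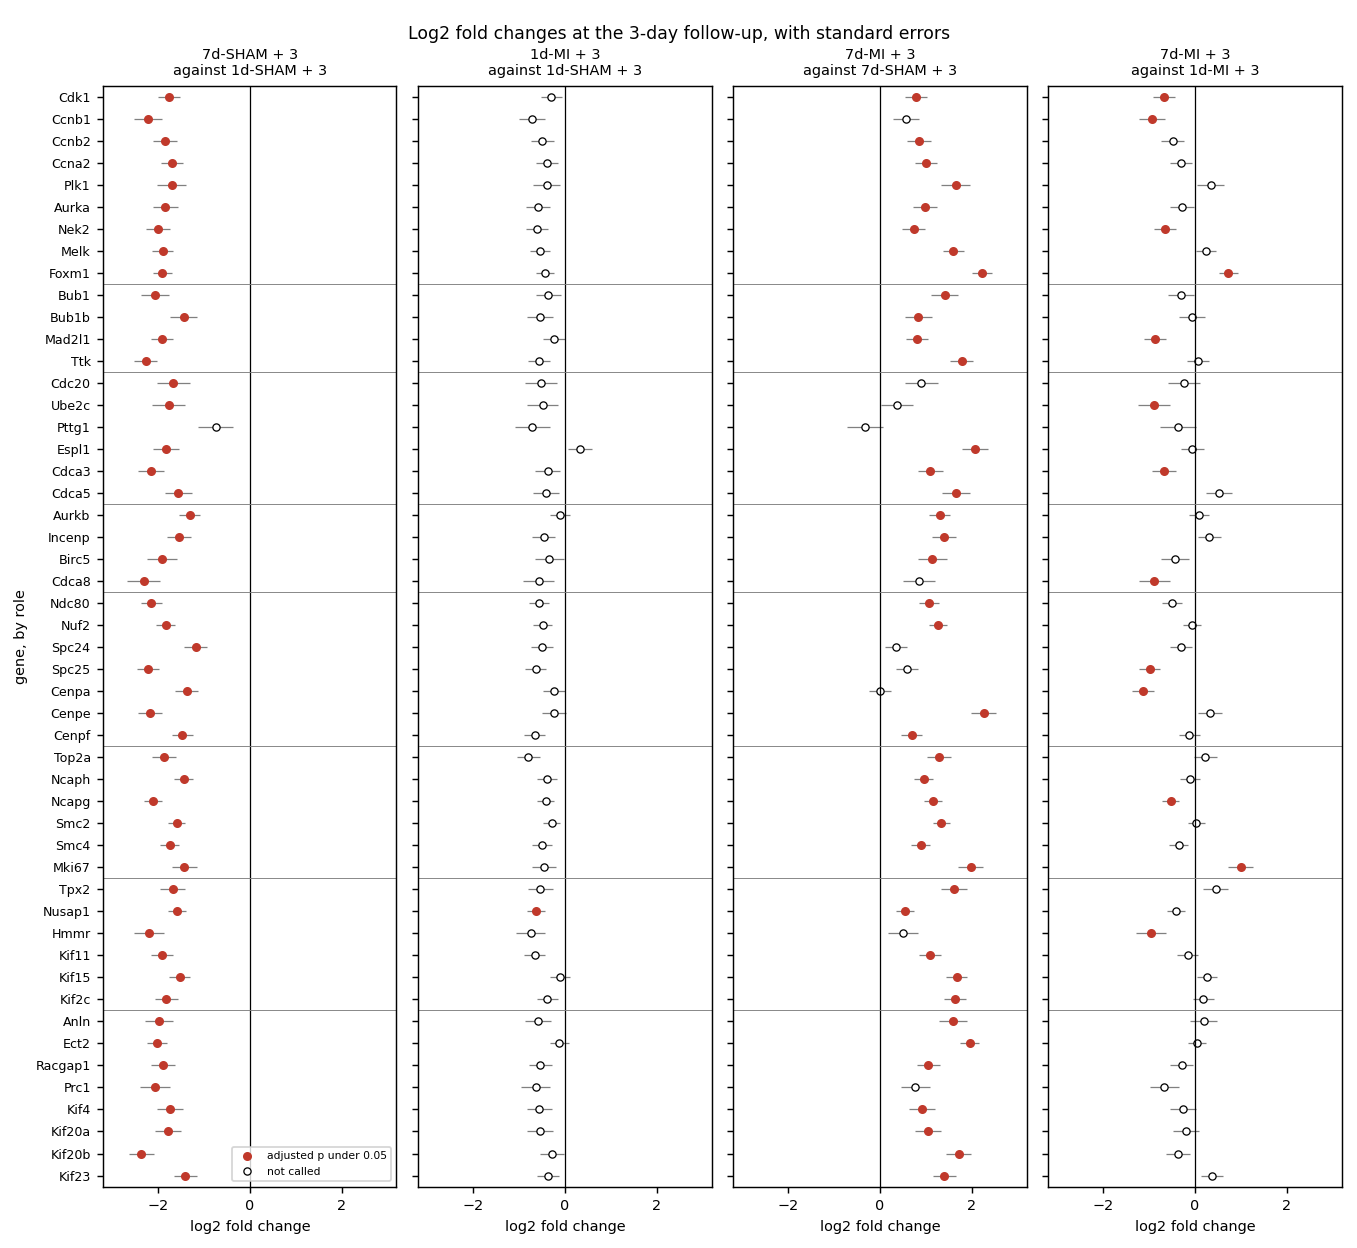
Log2 fold changes of the 50 genes in 4 comparisons at 3 days, with bars of 1 standard error; filled points passed an adjusted p under 0.05 and lines separate the roles in the order of the heat map. Values lie left of 0 for all 50 genes between the shams and right of 0 for most genes after MI at day 7, where Cenpa lies at 0.00 and Pttg1 at -0.33.

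The difference between the effects of MI at both ages was tested as an interaction. For 42 of the 50 genes the effect was higher after MI at day 7 than after MI at day 1, and for 0 it was lower, where 9.01% of all genes were higher and 4.07% lower. The median difference was 1.57 on the log2 scale, against 0.03 for all genes, and it ranged from 0.25 for Cenpa to 2.64 for Foxm1 (SE 0.29, adjusted p = 1.1e-04). Ect2 (2.08, SE 0.29, adjusted p = 2.9e-04) and Melk, a kinase of proliferating cells (2.14, SE 0.31, adjusted p = 3.8e-04), followed by p.

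Melk, taken as an example, had 11.1, 10.9, 13.6 and 8.09 CPM in 1d-SHAM + 3 against 5.26, 6.54, 10.9 and 7.35 CPM after MI at day 1. In 7d-SHAM + 3 it had 2.04, 2.60, 3.23 and 3.80 CPM against 8.65, 8.26, 10.2 and 8.33 CPM after MI at day 7. All 9 entry genes, all 6 chromosome structure genes and all 8 midzone and cytokinesis genes passed, the values of the last from 1.41 for Prc1 to 2.18 for Anln. Some of these calls depended on the setting, since over 27 alternatives Prc1 was called in 7, Ccnb1 in 9 and Cdk1 in 13, all with the same sign. The 8 genes that did not pass were Cenpa, Pttg1, Spc24, Ube2c, Mad2l1, Hmmr, Cdc20 and Cdca8. Without the libraries of prefix 1078, 28 of the 50 genes were called higher with a median of 1.30, where 1800 of 24248 genes tested were higher. Without those of prefix 1103, 44 were called higher with a median of 1.82, where 1961 of 24581 genes tested were higher.

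Compared directly, the infarcted hearts of both ages had overlapping sums but different proportions. In 7d-MI + 3 against 1d-MI + 3, 2 genes were higher and 11 lower, where 19.4% of all genes were higher and 23.5% lower, so that these shares were not above those of all genes. The median was -0.26, against -0.13 for all genes, with values from -1.13 to 1.00. The median was -0.03 without replicate 3 of 1d-MI + 3 and -0.40 without its replicate 1. It was -0.47 with upper-quartile scaling, against -0.37 for all genes, and -0.11 with the prefix as a random block, against -0.12 for all genes.

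Of the higher genes, Mki67 was higher by 1.00 (SE 0.27, adjusted p = 0.0063), with 423 ± 54.4 CPM (SD, n = 4) against 211 ± 61.6 CPM, and Foxm1 by 0.73 (SE 0.20, adjusted p = 0.0068), with 10.1 ± 1.56 CPM against 6.09 ± 0.799 CPM. Neither overlapped between the groups. Both calls remained in all 20 alternative settings.

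The lower genes were the cyclin Ccnb1, the kinases Cdk1 and Nek2, the checkpoint gene Mad2l1, Ube2c and Cdca3, Cdca8, the kinetochore genes Cenpa and Spc25, Ncapg and Hmmr. Cenpa was lower by 1.13 (SE 0.24, adjusted p = 0.0013), with 13.2, 16, 19.2 and 16.7 CPM in 1d-MI + 3, all above the values of 7d-MI + 3. Spc25 fell by 0.99 (SE 0.23, adjusted p = 0.0022), from 13.0, 19.4, 31.8 and 25 CPM to 10.7, 11.8, 11.3 and 11.2 CPM, and Mad2l1 by 0.88 (SE 0.24, adjusted p = 0.0074), from 40.3, 50.5, 82.4 and 64.6 CPM to 33.6, 32.1, 29.5 and 33.9 CPM. These 3 also remained in all 20 settings, whereas each of the other 8 was lost in at least 2 of them. With the prefix as a random block in limma-voom, 6 genes were called, and leaving out single libraries gave 5 genes without replicate 3 of 7d-MI + 3 to 16 genes without replicate 1 of 1d-MI + 3. None of the 8 cytokinesis genes was called, and their median was -0.23.

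The ratio of Mki67 to Cdk1 in the same library describes this shift. The ratio was 6.19 ± 0.671 (SD, n = 4) in 1d-SHAM + 3, 5.74 ± 0.292 in 1d-MI + 3 and 8.07 ± 0.604 in 7d-SHAM + 3. In 7d-MI + 3 it was 18.4 ± 3.02, and its 4 libraries, from 15.4 to 22.6, lay above all others at this follow-up. Mki67 alone held 22.1 ± 2.33% of the summed CPM of the 50 genes in 7d-MI + 3 and 10.8 ± 0.504% in 1d-MI + 3. The cytokinesis genes held 16.3 ± 0.414% and 18.9 ± 0.357% of it in the same groups, and 16.7 ± 1.5% and 18.9 ± 1.40% in the shams of day 7 and day 1. The ratio was chosen after the values of both genes had been seen, and it was not tested.

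Further genes of mitosis and of DNA replication, neither of them among the 50, were counted in the same comparisons. Of 65 further mitosis genes, 62 were lower in 7d-SHAM + 3 than in 1d-SHAM + 3 with a median of -1.65, among them Sgo1 (-2.20), which protects centromeric cohesion. Of all genes 12.2% were lower there. The summed level of these 65 genes was 2260 to 2511 CPM in the 4 libraries of 1d-SHAM + 3, against 1661 to 3528 CPM for the 50 genes. After MI at day 7, 50 of the 65 were higher and 1 was lower with a median of 1.07, where 19.8% of all genes were higher and 14.2% lower. Their sum was 1508 to 1543 CPM in 7d-SHAM + 3 and 1390 to 1693 CPM in 7d-MI + 3, so it did not follow most of them. The sum therefore cannot show whether these 65 genes share the spread of the 50 within 1d-SHAM + 3. After MI at day 1, 4 were lower and 0 higher, where 4.36% of all genes were lower and 4.10% higher. Of 42 DNA replication genes, 36 were lower between the shams with a median of -1.02 and 22 were higher after MI at day 7 with a median of 0.70. Their median was thus closer to 0 than that of the mitosis genes in both comparisons, a difference that was not tested. In 7d-MI + 3 against 1d-MI + 3 the replication genes had 4 higher and 6 lower members and a median of 0.10, and the 65 further mitosis genes had 3 higher and 16 lower members and a median of -0.27. Here 19.4% of all genes were higher and 23.5% lower, so these counts were near or below the shares of all genes.

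Markers of cell types also differed in these comparisons. The summed level of 11 macrophage markers spanned 44.4 to 71.0 CPM in the shams and 81.6 to 195 CPM in the infarcted hearts of day 1, and 115 to 160 CPM and 305 to 508 CPM in those of day 7. After MI at day 7, 9 of these 11 markers were higher, with 6 of 7 neutrophil markers tested, while 7 of 10 cardiomyocyte markers were lower. Among all genes 19.8% were higher and 14.2% lower. Of the 9 fibroblast markers 6 were higher and the other 3 lower. The sum of the neutrophil markers was 2.23 to 4.49 CPM in 7d-SHAM + 3 and 34.6 to 70.7 CPM in 7d-MI + 3, and that of the fibroblast markers 3641 to 4099 CPM and 6219 to 7091 CPM. The neutrophil sum was also higher after MI at day 1, with 3.61 to 7.04 CPM in 1d-SHAM + 3 and 19.3 to 24.1 CPM in 1d-MI + 3. There most of the 50 genes had lower values. The endothelial sum was 476 to 532 CPM in 7d-SHAM + 3 and 366 to 537 CPM in 7d-MI + 3. At day 1 it was 378 to 406 CPM in the shams and 255 to 394 CPM after MI. Replicate 3 of 7d-MI + 3 had the highest cardiomyocyte sum, 68801 CPM against 33311 to 36487 CPM in the other 3. Its summed level of the 50 genes was 1982 CPM, against 1836 to 1931 CPM in the others. This library also had the highest fibroblast, neutrophil and endothelial sums of its group, 7091, 70.7 and 537 CPM, and the lowest macrophage sum, 305 CPM. Between the shams, 8 of 11 macrophage, 6 of 9 fibroblast and 6 of 10 cardiomyocyte markers were higher in the older hearts and 0 were lower, opposite to the mitosis genes. The shares of all genes were 8.12% higher and 12.2% lower. In 7d-MI + 3 against 1d-MI + 3, all 11 macrophage and all 9 fibroblast markers, 5 of 8 smooth muscle and pericyte markers and 3 of 7 neutrophil markers were higher and 0 of them lower, and of the 10 cardiomyocyte markers 3 were higher and 4 lower. The shares of all genes were 19.4% higher and 23.5% lower. No marker list was at 0 for any of its genes in a whole group. The part of these cells in the results was not tested.

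**Figure D4:**
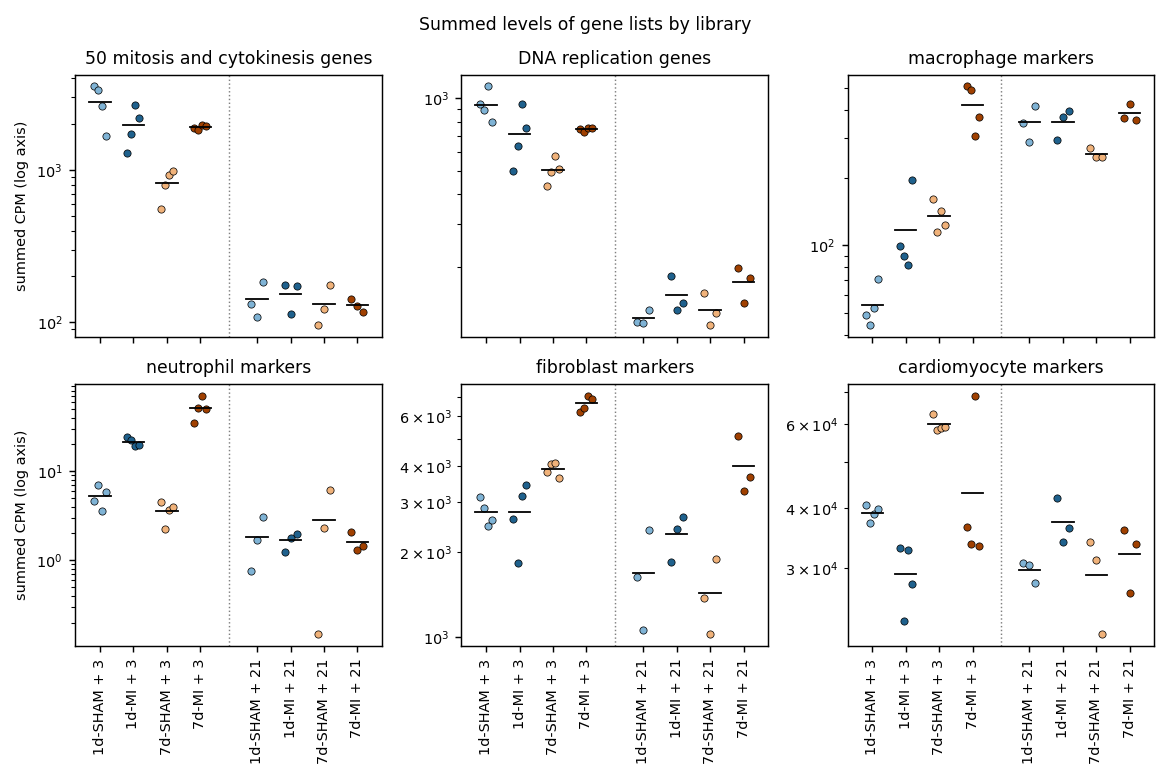
Summed CPM of the 50 genes and of 5 further gene lists on log axes, with 1 point per library and a line at the group mean. At 3 days the sums of the 50 genes and of the replication genes are lowest in 7d-SHAM + 3, and the macrophage, neutrophil and fibroblast sums are highest in 7d-MI + 3.

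At the 21-day follow-up the summed level of the 50 genes was 96.4 to 184 CPM in the 12 libraries, with overlap between all 4 groups. In 7d-SHAM + 21 the mean level of 10 genes, among them Foxm1, Bub1, Ect2, Ncapg and Kif2c, was not above 0.237 CPM per kilobase. This value was the background of its replicate 3, whereas replicates 1 and 2 had 0.00106 and 0.0944 CPM per kilobase. The lowest of these means, 0.128 CPM per kilobase for Cdca5, lay above the background of replicates 1 and 2. In the other 3 groups no gene had a mean at or under the highest background of a library. Mki67 had 8.99, 6.73 and 17.9 CPM in 1d-SHAM + 21 against 9.64, 5.58 and 11.5 CPM after MI at day 1, and 3.60, 6.95 and 17.2 CPM in 7d-SHAM + 21 against 11.6, 7.21 and 6.82 CPM after MI at day 7. Top2a, Anln, Bub1 and Ccnb1 overlapped between all groups in the same way, with group means of 6.21 to 7.05 CPM, 2.34 to 2.80 CPM, 0.715 to 0.956 CPM and 1.10 to 2.01 CPM. The order per kilobase had changed, as Smc4, Pttg1 and Cenpa took the first 3 places in all 4 groups, for example with 3.43, 2.74 and 2.22 CPM per kilobase in 1d-SHAM + 21. The lowest group mean of a gene was 0.228 CPM, and single libraries held counts as low as 0 for Kif2c and 1 for Ndc80, so differences of a few counts could not be resolved.

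No member passed edgeR's test in any of the 5 comparisons at 21 days, in which few genes of the whole table did. For 1d-MI + 21 against 1d-SHAM + 21 the median was 0.16, with 33 positive and 17 negative values, and 0 of 50 genes were called where 0.0162% of all genes were. At an unadjusted p under 0.05, 8 genes were higher and 1 lower, against 14.6% of all genes in either direction.

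The smallest p belonged to Cdk1 (log2 fold change 1.63, SE 0.34, adjusted p = 0.20), with 4.45, 3.05 and 3.90 CPM in 1d-MI + 21 and 1.43, 1.21 and 1.04 CPM in 1d-SHAM + 21. The 3 libraries of 1d-MI + 21 lay above all 9 others, since 7d-SHAM + 21 had 1.86, 1.86 and 1.24 CPM and 7d-MI + 21 had 2.03, 2.15 and 2.09 CPM. DESeq2 called Cdk1 (log2 fold change 1.52, adjusted p = 0.0015), as did edgeR on these 2 groups alone (adjusted p = 0.04), and over the 17 alternatives the adjusted p ran from 0.0015 to 0.85. These 2 fits called 1.36% and 2.91% of all genes. Ccnb2, cyclin B2, came next with 3.62, 2.14 and 1.99 CPM against 0.703, 1.37 and 0.703 CPM (1.5, SE 0.45, adjusted p = 0.28). Melk had the lowest value, -1.64.

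In the other comparisons 0 members were called as well, by edgeR, DESeq2 and limma-voom. Of the 24646 genes tested, DESeq2 called 335 higher and 653 lower in 7d-MI + 21 against 7d-SHAM + 21. It called 158 higher and 46 lower in 7d-MI + 21 against 1d-MI + 21. The shares of all genes given below are those of edgeR. For 7d-MI + 21 against 1d-MI + 21 the median was -0.22 with 44 negative values, where 0.0325% of all genes were called, and 6 members were lower at an unadjusted p under 0.05, against 6.52% of all genes in either direction. Birc5, the passenger subunit survivin, had 1.40, 2.09 and 1.81 CPM in 7d-MI + 21 and 4.75, 3.18 and 3.48 CPM in 1d-MI + 21 (-1.11, SE 0.34, adjusted p = 0.43), and Ccnb2 had 1.10, 1.13 and 1.05 CPM in 7d-MI + 21 (-1.24, adjusted p = 0.56). Both genes had all their values of 1d-MI + 21 above those of 7d-MI + 21.

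For 7d-MI + 21 against 7d-SHAM + 21 the median was 0.02, with 0% of all genes called, and 0 members passed an unadjusted p under 0.05, against 16.7% of all genes. The smallest p values were those of Ube2c (0.65, adjusted p = 0.36), with 2.09, 3.18 and 2.82 CPM against 2.14, 1.15 and 1.86 CPM, and Melk (-1.18, adjusted p = 0.36), with 0.621, 0.226 and 0.277 CPM against 0.426, 1.18 and 0.977 CPM. Both overlapped between the groups. Between the shams of both ages the median was -0.07, again with 0% of all genes called. Here 1 member was lower at an unadjusted p under 0.05, against 1.79% of all genes, namely Ncapg with 0.937, 1.40 and 1.20 CPM in 7d-SHAM + 21 and 1.97, 1.41 and 3.70 CPM in 1d-SHAM + 21, and Ccna2 followed with 4.40, 3.67 and 3.29 CPM against 4.67, 4.72 and 7.35 CPM.

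The difference of the MI effect between the ages had a median of -0.27 at 21 days, with 0% of all genes called, and 3 members were lower at an unadjusted p under 0.05, against 3.76% of all genes. These were Plk1 (-2.0, SE 0.67), Cdk1 (-1.31, SE 0.46) and Birc5 (-1.10, SE 0.49), each with an adjusted p of 1. Plk1 had 0.840, 0.484 and 0.612 CPM in 1d-SHAM + 21 against 2.42, 0.981 and 1.75 CPM in 1d-MI + 21, and 0.799, 0.896 and 1.55 CPM in 7d-SHAM + 21 against 0.535, 0.695 and 0.880 CPM in 7d-MI + 21. Aurkb had 1.10, 1.77 and 0.794 CPM, 3.07, 2.14 and 1.75 CPM, 0.894, 0.824 and 1.07 CPM, and 0.825, 1.55 and 1.16 CPM in the same order of groups, and Foxm1 1.09, 1.61 and 0.590 CPM, 2.98, 1.31 and 2.26 CPM, 1.20, 0.770 and 1.64 CPM, and 1.52, 1.16 and 1.91 CPM. For all 3 genes the mean of 1d-MI + 21 was the highest, but for each of them its lowest library lay below the highest of at least 1 other group. Whether this difference between the follow-ups is one of time was not tested, since kit and sequencer changed with it.

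**Figure D5:**
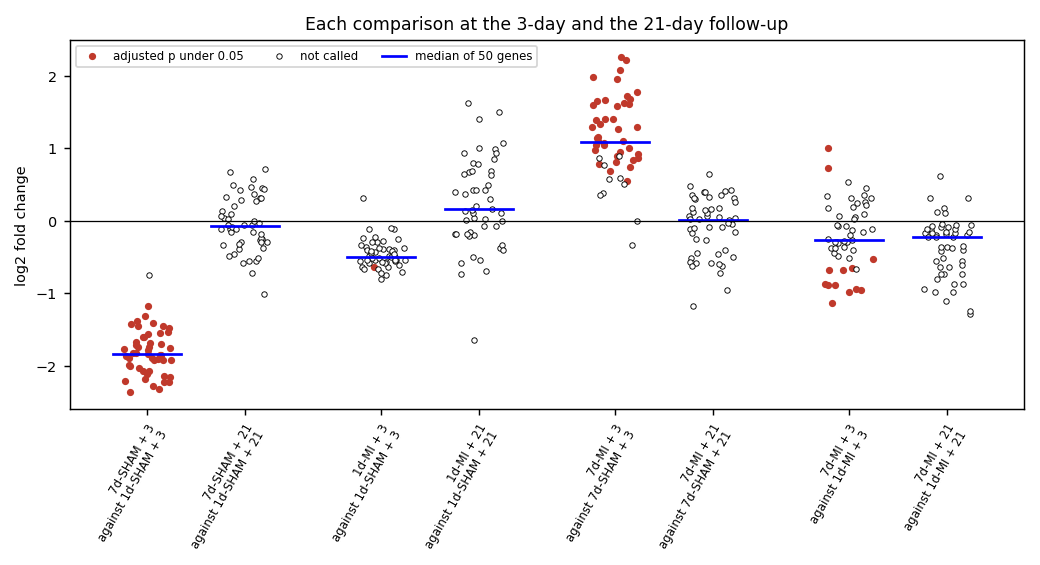
Log2 fold changes of the 50 genes in 4 comparisons, with the 3-day values beside the 21-day values; filled points passed an adjusted p under 0.05 and the line is the median, with points spread sideways for clarity. Medians of -1.83 between the shams and 1.08 after MI at day 7 stand beside -0.07 and 0.02 at 21 days.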

How the data were processed

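RNA from the remote left ventricular wall was sequenced in 28 libraries of 8 groups. The authors deposited gene counts and RPKM values for each library. The submitters' notes name TopHat2 2.0.11, Bowtie2 2.2.2, Cufflinks 2.2.1 and GRCm38. Which tool counted the reads, with which strand setting and on which annotation, was not given in the sources used here. Only the deposited counts were tested. The deposited RPKM values served to derive gene lengths. Counts of 2 libraries deposited as 2 lanes were summed. Each follow-up was fitted apart in edgeR 4.0.16 (R 4.3.3) with TMM scaling, the filterByExpr filter (count of at least 10, total of at least 15), 4 groups in 1 robust quasi-likelihood fit and Benjamini-Hochberg adjustment over 20345 genes at 3 days and 24646 at 21 days. Genes were called at an adjusted p under 0.05. Standard errors were derived from the log2 fold change and its F statistic. The p-values set differences between groups against the spread between libraries within groups. In 7d-SHAM + 3 and in each 21-day group all libraries had 1 prefix, so their spread holds no variation between prefixes.

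The edgeR fit was tried on simulated counts for 7d-MI + 3 against 1d-MI + 3 only, with the same dispersion for all genes. The fits at 21 days were not simulated. Alternatives were other scalings and filters, DESeq2 1.42.0, limma-voom (limma 3.58.1), 2 groups alone, blocks and single libraries left out. Leaving out the libraries of prefix 1078 or 1103 was chosen after seeing the data. The members and lists were chosen with earlier results of these data known. Values in every library were given for Cdk1, Ccnb1, Aurkb, Mki67, Top2a, Anln, Foxm1 and Bub1 and for up to 3 genes of smallest p in each direction of a comparison (the 2 of smallest p where none passed). Of other lists the 2 genes of smallest p could be named. Library values of Cenpa between sham and MI at day 7 and of Pttg1 were added after their values were seen. Promoter letters came from RefSeq windows on GRCm38.p6.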

Additional observations from a re-analysis of the deposited data

Results flagged for a closer look

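Tpx2, which activates Aurora A kinase at the spindle, had 36.7 CPM in replicate 4 of 1d-SHAM + 3, a library of prefix 1103, against 63.6 to 65.3 CPM in the other 3 libraries of this group. This was the only 1 of 204 sets of 4 libraries with a library this far from the rest, where chance marks about 1 in 20.

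The effect of MI at + 3 differed between the ages of operation for 42 of the 50 genes by edgeR's interaction test, with a median difference of 1.57 on the log2 scale. Summed macrophage, neutrophil and fibroblast markers were highest in 7d-MI + 3, and their part in this difference was not tested.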

How the results depend on the processing

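At 3 days no alternative turned the direction of a median. The counts of 49, 40 and 42 genes between the shams, after MI at day 7 and for the difference became 48, 31 and 30 with limma-voom and the prefix as a random block. Of the called genes, 43 of 49, 31 of 40 and 26 of 42 remained called in every alternative, all with the same sign. In 7d-MI + 3 against 1d-MI + 3 the 13 called genes became 6 under the prefix block, and 5 to 16 when single libraries were left out. In 1d-MI + 3 against 1d-SHAM + 3 the single call became 0 with RLE scaling, upper-quartile scaling, a mean count of at least 50, the 2 groups alone, the prefix block or without the libraries of prefix 1078. It became 3 with DESeq2, 3 with limma-voom, 5 without the libraries of prefix 1103, 23 without a filter and 0 to 12 when single libraries were left out. The cause was not tested.

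At 21 days 1d-MI + 21 against 1d-SHAM + 21 had 1 called gene, Cdk1, with DESeq2 and with the 2 groups alone. The median of 7d-MI + 21 against 7d-SHAM + 21 moved from 0.02 to -0.40 with upper-quartile scaling, where that of all genes was -0.47. When single libraries were left out it ranged from -0.20 to 0.36, the last without replicate 3 of 7d-SHAM + 21. The members' median of 7d-MI + 21 against 1d-MI + 21 ranged from -0.48 to -0.17. With RLE scaling the medians of the 50 genes and of all genes were -0.24 and -0.05 in this comparison. They were 0.04 and -0.22 for 1d-MI + 21 and -0.10 and -0.22 for 7d-MI + 21, each against its sham. Between the shams they were -0.11 and 0.09, and for the difference -0.26 and -0.13. In 4 of the 5 comparisons at 21 days the median of the 50 genes changed sign under at least 1 alternative. Counts as low as 0 to 1 in a library limit these values.

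Whether the replicate numbers of the 21-day labels pair the libraries could not be decided. Deviations from the group means of libraries with the same number correlated between -0.40 and 0.43 over 15 pairs, with a median of 0.05. Over 39 pairs with other numbers they correlated between -0.61 and 0.54, with a median of -0.05. Means of 3 libraries are too few to exclude a pairing, and the main fit used none. With the replicate block 0 genes were called in all 5 comparisons, with medians of -0.22, 0.42, 0.03, 0.20 and -0.45 for 7d-MI + 21 against 1d-MI + 21, 1d-MI + 21 against its sham, 7d-MI + 21 against its sham, the shams and the difference. At 3 days the numbers only name the libraries.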

Other observations

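The log2 fold changes of the 50 genes were set against gene length as a description, with no test. At 3 days Spearman's rho over the 50 genes was 0.16 for 7d-MI + 3 against 1d-MI + 3, -0.01 for 1d-MI + 3 against its sham, 0.28 for 7d-MI + 3 against its sham, -0.21 between the shams and 0.33 for the difference, and over all protein-coding genes it was 0.16, -0.07, 0.13, 0.00 and 0.18. At 21 days it was 0.43, -0.35, -0.07, -0.04 and 0.36 over the 50 genes, in the same order, and 0.24, 0.01, 0.13, 0.10 and 0.13 over all protein-coding genes. Genes of 1 library share its depth and RNA quality.

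Exons of 11 of the 50 genes overlap a gene on the other strand, among them Ccna2 (Exosc9), Cdc20 (Elovl1), Ube2c (Tnnc2), Nusap1 (Oip5) and Prc1 (Rccd1), and those of Foxm1 and Top2a overlap a gene on the same strand. Ccnb1, Ccnb2 and Kif4 each have a pseudogene named for them, with which reads can be shared. The counts of these genes are uncertain to that extent.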
